A study of Mus musculus with 3 samples.

Results

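The 8 genes described here encode receptors and bridging proteins by which dying cells are taken up: the receptors *Mertk*, *Axl*, *Tyro3*, *Stab1* and *Timd4* and the secreted bridges *Gas6*, *Pros1* and *Mfge8*. They were chosen by symbol, and all 8 were found among the 31053 genes counted. They were measured in single cells of subcutaneous implants in female CD-1 mice of 6 to 8 weeks, harvested on day 5. Matrigel-only mice carried Matrigel, a basement membrane gel, and received nothing by mouth. Vehicle mice carried rhBMP2 in Matrigel and received corn oil/DMSO. Palo mice carried the same rhBMP2/Matrigel mixture and received palovarotene, an agonist of retinoic acid receptor gamma, at 4 mg/kg. rhBMP2 is a recombinant bone morphogenetic protein that induces ectopic cartilage and bone. The Matrigel-only mice thus differed from the Vehicle mice both in rhBMP2 and in the oral vehicle. Each group gave 1 droplet library, in which the mice cannot be told apart, so differences between groups could not be set against a spread between samples and no p-value is given.

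The libraries held 44252421, 46317250 and 46901673 unique molecular identifiers (UMIs, which count captured transcripts) in Matrigel-only, Vehicle and Palo, in this order as in all lists of 3 values here. Macrophages were the cells with under 1% of their UMIs from *Col1a1*, *Col1a2*, *Col3a1*, *Dcn* and *Lum* and with a UMI of *Csf1r* or *C1qa*. There were 5812, 3253 and 5661 of them. Stromal cells were those with at least 1% of such UMIs, and numbered 2085, 1373 and 1184. All 15 macrophage markers not used in the rule were found at 5 CPM or more in macrophages of each library, and all 13 stromal markers in stromal cells, where CPM is the UMIs of a gene per 1000000 UMIs of the class. Stromal cells still held macrophage RNA: their levels of the 15 macrophage markers were 3.21 to 5.29% of the macrophage levels in Matrigel-only, 1.20 to 3.04% in Vehicle and 2.16 to 4.35% in Palo. The stromal markers in macrophages lay at 0.758 to 2.74%, 1.02 to 5.79% and 0.404 to 2.30% of their stromal levels. Pairs of libraries shared 11 to 21 cell barcodes. Intervals in brackets are 95% and cover counting error only.

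Cells that die by apoptosis expose phosphatidylserine on their surface, and phagocytes recognize it either directly or through a soluble bridge. *Mertk*, *Axl* and *Tyro3* encode the TAM family of receptor tyrosine kinases, whose ligands GAS6 and protein S (*Pros1*) bind phosphatidylserine and are activated by vitamin K-dependent carboxylation. *Timd4* encodes TIM-4 and *Stab1* stabilin-1, which bind phosphatidylserine directly, and *Mfge8* encodes a bridge to the integrins that contain the alpha v chain. Uptake of dead cells is a standing task of resident macrophages in most tissues, and fibroblasts can also take them up.

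On mouse genome build GRCm38 (mm10), with the GENCODE vM21 annotation, *Axl* and *Mfge8* lie on chromosome 7 at 25757273 to 25788705 and 79133768 to 79149060, both on the minus strand, and overlap no other gene. *Mertk* spans 128698956 to 128802894 and *Tyro3* 119797733 to 119818104 of chromosome 2, on the plus strand. *Gas6* lies on chromosome 8 at 13465374 to 13494490 on the minus strand and overlaps *Tmem255b* on the other strand. *Pros1* lies on chromosome 16 at 62854307 to 62929346, on the plus strand. *Stab1* lies on chromosome 14 at 31139013 to 31168641 on the minus strand and overlaps *Nt5dc2* on the other strand, and *Timd4* lies on chromosome 11 at 46810800 to 46844332 on the plus strand. *Mertk* overlaps *Gm23172* on its own strand and *Gm14011* on the other.

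The promoters below belong to *Axl*, the gene with the largest difference between libraries in stromal cells among those with at least 5 CPM, and to the 4 genes that were lower together in macrophages of the Vehicle library. Each sequence is the 250 bases before the RefSeq start on build GRCm38.p6, 5′ to 3′ on the strand of the gene. Capitals mark AGGTCA and GGGTCA, half-sites that retinoid receptors and other nuclear receptors can bind, and GGGCGG, the GC box, each searched on both strands.
*Axl* promoter, chr7:25788734-25788983, minus strand: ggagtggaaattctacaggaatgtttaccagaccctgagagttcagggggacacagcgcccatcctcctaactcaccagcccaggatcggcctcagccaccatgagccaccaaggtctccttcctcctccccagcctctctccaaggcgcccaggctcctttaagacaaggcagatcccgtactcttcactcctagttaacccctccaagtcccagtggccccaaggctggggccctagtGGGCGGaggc
*Gas6* promoter, chr8:13494536-13494785, minus strand: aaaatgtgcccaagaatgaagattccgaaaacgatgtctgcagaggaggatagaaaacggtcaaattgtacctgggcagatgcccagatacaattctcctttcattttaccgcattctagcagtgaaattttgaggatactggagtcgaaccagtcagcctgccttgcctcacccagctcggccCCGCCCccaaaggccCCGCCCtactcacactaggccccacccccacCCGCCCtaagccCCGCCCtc
*Pros1* promoter, chr16:62854057-62854306, plus strand: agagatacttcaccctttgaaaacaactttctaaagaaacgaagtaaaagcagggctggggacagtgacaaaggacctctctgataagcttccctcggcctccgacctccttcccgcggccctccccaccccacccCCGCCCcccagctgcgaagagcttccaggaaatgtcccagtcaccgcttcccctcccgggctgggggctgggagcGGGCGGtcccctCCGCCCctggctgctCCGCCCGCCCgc
*Stab1* promoter, chr14:31168642-31168891, minus strand: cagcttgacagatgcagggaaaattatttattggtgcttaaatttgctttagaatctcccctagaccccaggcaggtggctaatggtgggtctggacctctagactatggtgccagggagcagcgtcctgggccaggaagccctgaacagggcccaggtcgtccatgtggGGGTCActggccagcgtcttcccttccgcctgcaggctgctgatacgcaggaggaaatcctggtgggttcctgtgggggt
*Timd4* promoter, chr11:46810549-46810798, plus strand: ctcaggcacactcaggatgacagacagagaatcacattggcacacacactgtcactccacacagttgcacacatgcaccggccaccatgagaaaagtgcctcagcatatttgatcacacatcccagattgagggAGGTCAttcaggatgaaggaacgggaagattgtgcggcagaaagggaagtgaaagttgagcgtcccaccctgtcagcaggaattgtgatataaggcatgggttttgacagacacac
AGGTCA occurred 1 time in the *Timd4* sequence and GGGTCA 1 time in that of *Stab1*, whereas the GC box occurred 1, 4 and 5 times in those of *Axl*, *Gas6* and *Pros1*, some of the latter overlapping. Of all 32851 promoters of the same length, 14.0% held AGGTCA, 11.6% GGGTCA and 32.7% the GC box. Of the promoters not printed, that of *Mertk* held GGGTCA 1 time and the GC box 3 times, while those of *Tyro3* and *Mfge8* held neither half-site. These matches describe the letters alone.

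The 2 classes differed in which of the genes they expressed. *Stab1* and *Mertk* were mostly macrophage transcripts, with 94.2 to 97.5% and 83.4 to 92.3% of their UMIs in a library found in macrophages. For *Timd4* this share was 84.3%, 49.7% and 89.6%, and dendritic cells held 9.25%, 33.1% and 5.84% of its UMIs, at a higher level than macrophages in each library. *Mfge8* and *Tyro3* were mostly stromal, with 92.3 to 94.4% and 91.1 to 94.4% of their UMIs in stromal cells. *Axl*, *Gas6* and *Pros1* were found in both classes. The stromal level of *Stab1* was 4.55%, 2.88% and 4.29% of its macrophage level, within the range of the macrophage markers in each library, so it was read as background. *Timd4* in stromal cells rested on 12, 1 and 13 UMIs, at 3.72%, 0.780% and 6.38% of its macrophage level, and no difference was read from it. *Mertk* in stromal cells lay above the range of those markers, at 7.70%, 10.2% and 12.2% of the macrophage level. In macrophages, *Mfge8* lay above the range of the stromal markers at 4.75%, 6.03% and 4.21% of its stromal level, but close to its upper end in Vehicle.

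**Figure D1:**
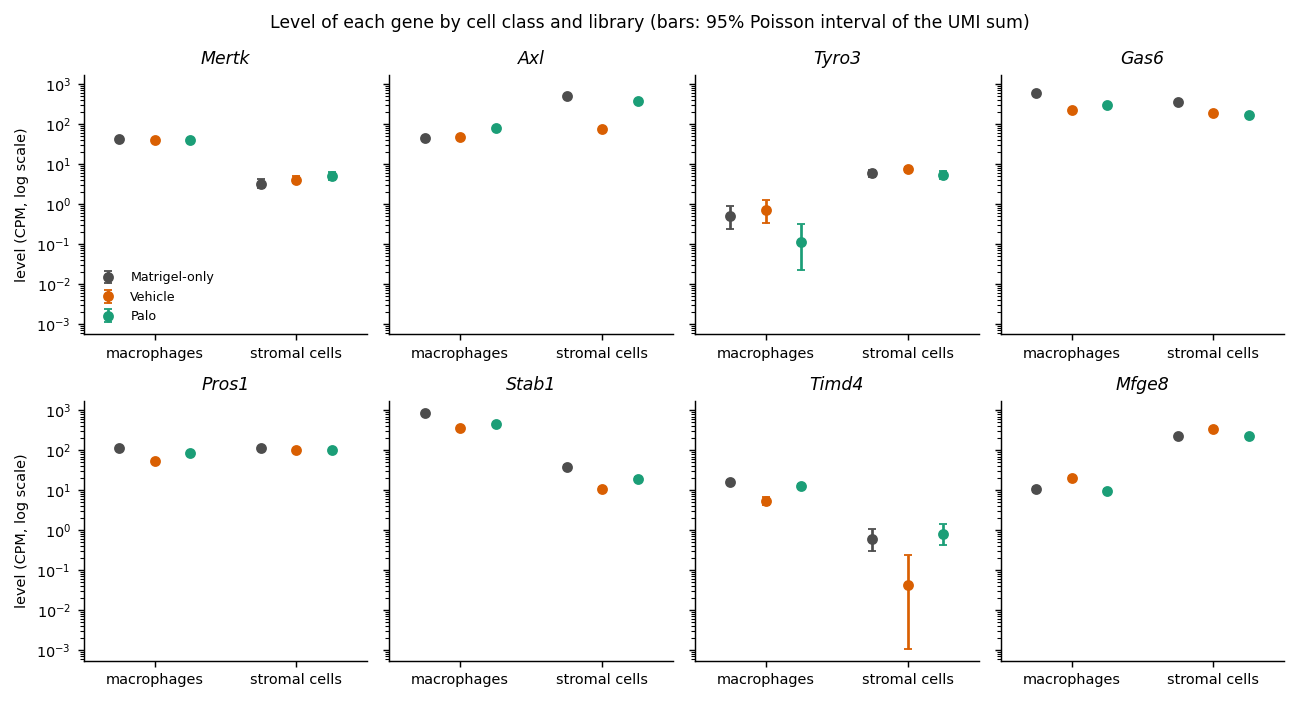
Level of each of the 8 genes in CPM (log scale) in macrophages and stromal cells of the 3 libraries; points are levels of the class and bars the 95% Poisson interval of its UMI sum. *Axl* in stromal cells of the Vehicle library (73.5 CPM) stands below the other 2 libraries (506 and 368 CPM), and *Gas6* and *Stab1* in macrophages are highest in Matrigel-only.

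Between Vehicle and Matrigel-only, 4 of the 7 genes with at least 5 CPM in macrophages of the higher library were at least 2-fold lower in Vehicle: *Gas6*, *Pros1*, *Stab1* and *Timd4*. Of all 9920 genes at that level, 3.22% were lower by as much. None of the 7 was at least 2-fold higher, against 4.67% of all genes. In stromal cells, *Axl* and *Stab1* of 6 genes were at least 2-fold lower in Vehicle, with *Stab1* at the background described above, beside 10.8% of all genes. None was as much higher, beside 5.52% of all genes.

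Between Palo and Vehicle, 1 gene was at least 2-fold higher in macrophages, *Timd4*, beside 2.18% of all genes, and 1 was at least 2-fold lower, *Mfge8*, beside 5.79%. In stromal cells *Axl* was the one gene at least 2-fold higher in Palo (all genes 7.63%), and none was as much lower (all genes 5.78%). Between Palo and Matrigel-only, *Gas6* was at least 2-fold lower in macrophages (all genes 2.12%) and none was as much higher (all genes 1.06%). *Gas6* and *Stab1* were at least 2-fold lower in stromal cells (all genes 2.58%), with *Stab1* at the background described above. None was as much higher there (all genes 0.793%). The 3 comparisons share libraries and are not independent. In macrophages the median log2 ratio of all genes was -0.18 for Palo over Vehicle and -0.17 for Palo over Matrigel-only, and by library size 27.3% of the genes past 2-fold were higher in Palo than in Vehicle. With scaling factors by the TMM method, which assume that most genes do not differ, that share was 49.3%. It was 54.2% in place of 33.3% for Palo over Matrigel-only. The factors were set over the macrophage and stromal sums of all libraries together, so this assumption also spans both classes. Under TMM *Mfge8* and *Gas6* each fell short of 2-fold in the Palo comparisons of macrophages.

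**Figure D2:**
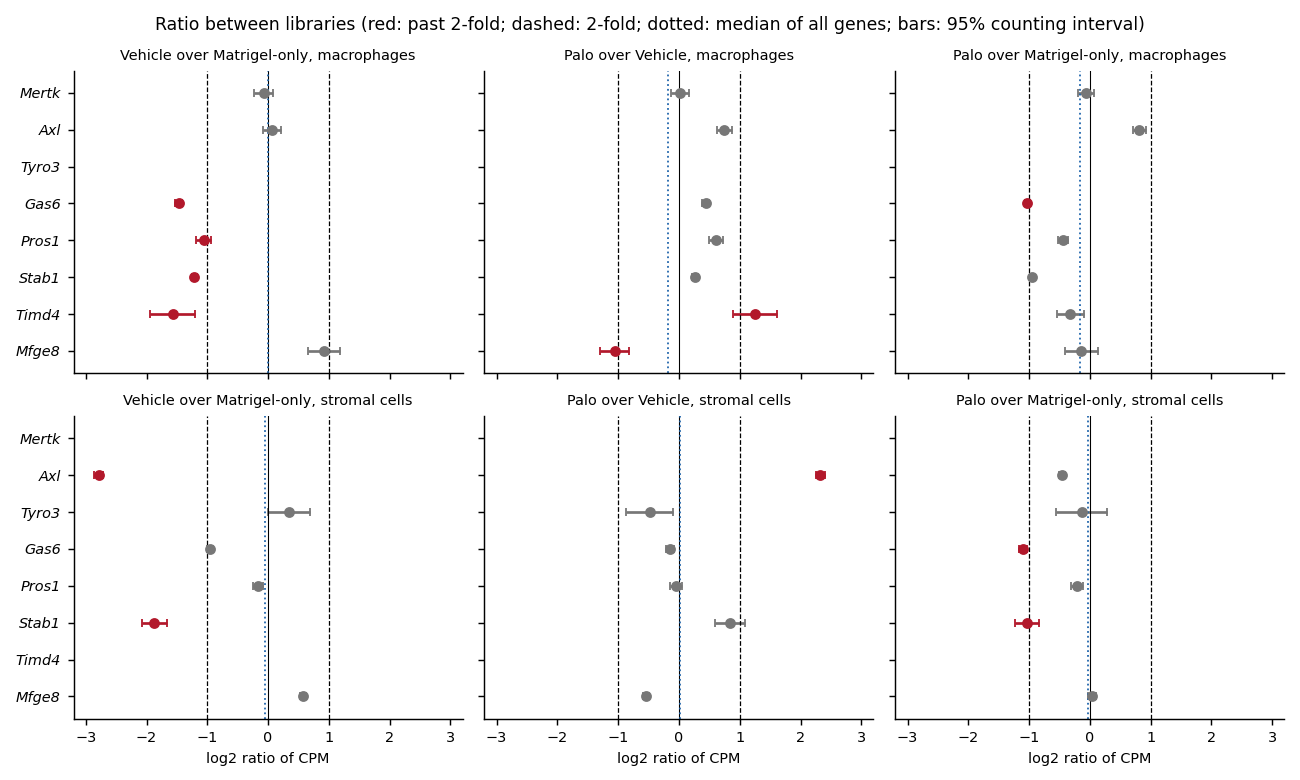
Log2 ratio of CPM between libraries for each gene with at least 5 CPM in the higher library, in macrophages (top) and stromal cells (bottom); bars are 95% counting intervals, dashed lines mark 2-fold, the dotted line the median of all genes, and red points are past 2-fold. In macrophages *Gas6*, *Pros1*, *Stab1* and *Timd4* lie left of the lower dashed line for Vehicle over Matrigel-only, and in stromal cells *Axl* lies at -2.79 for that comparison and at 2.32 for Palo over Vehicle.

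Among the receptor kinases, *Axl* in stromal cells differed most between the libraries. Its level was 506 CPM in Matrigel-only (497 to 516), 73.5 CPM in Vehicle (70.0 to 77.0) and 368 CPM in Palo (358 to 377). The Vehicle level was thus 6.89-fold lower than that of Matrigel-only and the Palo level 5.01-fold higher than that of Vehicle. Palo was still lower than Matrigel-only, by a log2 ratio of -0.46 (-0.51 to -0.42). With each cell thinned to 1400 UMIs, 47.9%, 9.21% and 37.2% of stromal cells had an *Axl* UMI, and unthinned 86.2%, 37.8% and 85.2% did, at a median of 9082, 17114 and 12955 UMIs a cell. In dendritic cells, which held little *Axl*, the level was 3.62, 2.92 and 2.44 CPM on 1 or 2 UMIs.

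In macrophages the pattern of *Axl* was different. The level was 44.7 CPM in Matrigel-only (41.8 to 47.7), 46.9 CPM in Vehicle (43.4 to 50.6) and 78.6 CPM in Palo (75.3 to 82.0). The 2 libraries without palovarotene did not differ beyond counting error, with a log2 ratio of 0.07 (-0.08 to 0.21) that was -0.00 at its lowest over the alternative settings. This value over all macrophages held differences in both directions. Vehicle was below Matrigel-only in macrophages with *Retnla* or *Hal*, at -0.62 (-0.89 to -0.36), and above it in those without, at 0.70 (0.48 to 0.92). With *Ms4a7* or *Folr2* the log2 ratio was 0.53 (0.29 to 0.76), and without them it was -0.37 (-0.56 to -0.18). Palo was 1.68-fold above Vehicle (1.54 to 1.83) and 1.76-fold above Matrigel-only (1.63 to 1.90), short of 2-fold in both. Over the alternative settings both log2 ratios reached 0.98. Some of the cells passed 2-fold. Palo over Vehicle was 1.35 with *Retnla* or *Hal* and 0.37 without, and Palo over Matrigel-only 1.09 with *Ms4a7* or *Folr2* and 0.37 without, on the log2 scale.

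*Mertk*, the TAM receptor most linked to uptake by macrophages, kept almost the same macrophage level in the 3 libraries. It stood at 42.1 CPM (39.3 to 45.0) in Matrigel-only, 40.0 CPM (36.8 to 43.4) in Vehicle and 40.3 CPM (38.0 to 42.8) in Palo. The log2 ratios were -0.07 for Vehicle over Matrigel-only, 0.01 for Palo over Vehicle and -0.06 for Palo over Matrigel-only. Over the alternative settings they reached 0.02, 0.25 and 0.10, so no direction can be given. The value for Palo over Vehicle held differences in both directions. It was -0.28 (-0.53 to -0.03) in macrophages with *Retnla* or *Hal* and 0.25 (0.06 to 0.44) in those without. At 1400 UMIs a cell, 5.87%, 5.88% and 5.97% of macrophages held a *Mertk* UMI. *Tyro3*, the third receptor of the family, was low throughout. In stromal cells it stood at 5.84, 7.42 and 5.31 CPM on 117, 175 and 84 UMIs, and in macrophages only 10, 10 and 3 UMIs were counted.

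Of the bridges, *Gas6* showed the largest difference in macrophages. Its macrophage level was 609 CPM in Matrigel-only (598 to 620), 219 CPM in Vehicle (212 to 227) and 298 CPM in Palo (291 to 304). Vehicle was 2.78-fold and Palo 2.05-fold below Matrigel-only, and Palo was 1.36-fold above Vehicle. The share of macrophages with a *Gas6* UMI at 1400 UMIs was 46.1%, 20.4% and 27.6%. In stromal cells *Gas6* stood at 359, 186 and 167 CPM, so that both rhBMP2 libraries were below Matrigel-only, Vehicle by 1.94-fold and Palo by 2.15-fold. Between Palo and Vehicle the 2 classes went opposite ways, with log2 ratios of 0.44 (0.38 to 0.50) in macrophages and -0.15 (-0.22 to -0.08) in stromal cells.

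*Pros1*, the gene of protein S, was lower in Vehicle macrophages at 54.6 CPM (50.9 to 58.6) than in Matrigel-only at 114 CPM (109 to 119) and Palo at 83.5 CPM (80.1 to 87.0). The ratio of Vehicle to Matrigel-only was just past 2-fold, at a log2 value of -1.06 (-1.18 to -0.94), and its interval included 2-fold. In stromal cells *Pros1* varied little, with 114, 102 and 99.0 CPM. The 3 stromal levels differed by at most 1.16-fold.

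*Mfge8* was highest in Vehicle in both classes. In stromal cells it stood at 223 CPM in Matrigel-only (217 to 230), 333 CPM in Vehicle (326 to 340) and 228 CPM in Palo (221 to 236). Vehicle was 1.49-fold above Matrigel-only, and the Palo and Matrigel-only intervals overlapped. In macrophages the low levels followed the same order of Vehicle above the others, with 10.6, 20.1 and 9.62 CPM on 216, 288 and 264 UMIs. The stromal markers in macrophages were summed at 281, 281 and 164 CPM, and their part in these macrophage values was not tested.

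Over all macrophages, *Stab1* and *Timd4*, the direct phosphatidylserine receptors among the genes chosen, were highest in Matrigel-only. *Stab1*, which also acts as a scavenger receptor, stood at 863 CPM (850 to 876), 372 CPM (362 to 382) and 446 CPM (438 to 454). Vehicle was 2.32-fold and Palo 1.93-fold below Matrigel-only. At 1400 UMIs a cell, 49.1%, 30.8% and 30.5% of macrophages held a *Stab1* UMI, beside 4.01%, 1.46% and 2.14% of stromal cells. Vehicle and Palo thus had a like share of *Stab1* macrophages at this depth, while the level was 1.20-fold higher in Palo. At 3000 UMIs a cell the macrophage shares were 55.1%, 42.4% and 38.5%, lower in Palo than in Vehicle. The level over all macrophages held differences between Palo and Vehicle in both directions. The log2 ratio was -0.42 (-0.50 to -0.33) with *Retnla* or *Hal* and 0.80 (0.75 to 0.86) without. With *Ms4a7* or *Folr2* it was 0.42 (0.37 to 0.47), and without them -1.18 (-1.44 to -0.92).

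*Timd4*, a marker of resident macrophages in several tissues, was detected in few cells. Its macrophage level was 16.1 CPM on 328 UMIs in Matrigel-only, 5.43 CPM on 78 UMIs in Vehicle and 12.9 CPM on 353 UMIs in Palo. Vehicle was 2.96-fold lower than Matrigel-only, and Palo was 2.37-fold higher than Vehicle (1.85 to 3.07). Palo was below Matrigel-only by a log2 ratio of -0.32 (-0.55 to -0.10), a value that held differences in both directions. With *Ms4a7* or *Folr2* the ratio was -0.77 (-1.03 to -0.51), and without them 1.57 (0.98 to 2.21). With *Lyve1* it was -0.61 (-0.97 to -0.26), and without it 0.41 (0.09 to 0.73). The thinned shares were 2.08%, 0.809% and 1.68% of macrophages, beside 0.0607%, 0.00622% and 0.108% of stromal cells.

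Markers of other cell types also moved in the macrophages. The summed levels of 10 neutrophil markers were 94.9, 245 and 71.2 CPM, those of 17 T and NK cell markers 26.3, 118 and 15.2 CPM, and those of 12 dendritic markers 319, 455 and 360 CPM, each highest in Vehicle. With the 75, 147 and 139 macrophages that held at least 3 dendritic markers left out, *Gas6*, *Pros1*, *Stab1* and *Timd4* were still past 2-fold for Vehicle over Matrigel-only, while *Mfge8* for Palo over Vehicle and *Gas6* for Palo over Matrigel-only fell just short. The part of the neutrophil and T cell markers was not tested.

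In stromal cells, the adipocyte, endothelial and macrophage markers had the order of *Axl* between the libraries, lowest in Vehicle. Several stromal markers had this order too, with *Dpt* at 1970, 312 and 1241 CPM and *Loxl1* at 982, 223 and 654 CPM. *Pdgfra*, *Thy1*, *Fbln1* and *Fstl1* shared it. *Prrx1*, *Twist2* and *Sparc* were lowest in Vehicle but highest in Palo, and *Pdgfrb*, *Serpinf1*, *Col5a2* and *Col6a1* were highest in Vehicle. The 7 adipocyte markers were summed at 566, 85.2 and 233 CPM, with 3, 3 and 2 of them at 5 CPM or more. The 10 endothelial markers were summed at 62.3, 12.1 and 39.9 CPM, with at most 2 of them at 5 CPM or more in a library. The 17 T and NK cell markers were summed at 684, 147 and 601 CPM, also with at most 2 at that level. Of these sums, 681, 128 and 595 CPM were *Thy1*, which is also one of the stromal markers. They were therefore not read as T and NK cell RNA. The 15 macrophage markers were summed at 1069, 390 and 907 CPM. *Axl* stayed past 2-fold for Vehicle over Matrigel-only and for Palo over Vehicle with the stromal cells holding *Csf1r* or *C1qa* left out, and the part of the other markers was not tested.

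Within the macrophages, the genes fell on different cells, as the split by other genes showed. *Ms4a7* and *Folr2* were used for tissue-type macrophages, *Lyve1* for a subset of resident macrophages along vessels, and *Mmp12* and *Itgax* for a monocyte-derived population. *Stab1* stood at 1201, 540 and 722 CPM in macrophages with a UMI of *Ms4a7* or *Folr2* and at 60.9, 50.8 and 22.3 CPM in those without. *Gas6* showed the same split, with 838, 322 and 479 CPM against 65.2, 22.3 and 20.2 CPM. *Mertk* was also higher with these genes, at 51.3, 50.3 and 54.7 CPM against 20.2, 20.3 and 18.4 CPM. *Axl* went the other way in each library. It stood at 120, 108 and 140 CPM in macrophages with *Mmp12* or *Itgax* and at 27.1, 26.0 and 46.1 CPM in those without, and at only 10.9, 3.82 and 13.8 CPM in those with *Lyve1*. A UMI is found more often in deeper cells, and macrophages with *Mmp12* or *Itgax* had medians of 4393, 6086 and 5909 UMIs against 2914, 3333 and 3859 in the others.

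The shares of these cells also differed between the libraries. Macrophages with *Lyve1* were 20.3%, 6.09% and 11.2%, those with *Retnla* or *Hal* 56.4%, 26.7% and 51.0%, and those with *Mmp12* or *Itgax* 13.7%, 15.9% and 26.0%. These shares were not thinned, and the macrophages had medians of 3090.5, 3646 and 4254 UMIs. Within the macrophages with *Ms4a7* or *Folr2*, Vehicle remained below Matrigel-only for *Gas6* (log2 ratio -1.38), *Pros1* (-1.31), *Stab1* (-1.15) and *Timd4* (-1.87). Either gene sufficed for this split, and they ran unlike each other. *Ms4a7* stood at 526, 887 and 465 CPM in macrophages. *Folr2* was found in 1728 of 3014, 679 of 1989 and 2051 of 4429 macrophages thinned to 3000 UMIs. Whether the split held like cells in each library was not tested. Within the macrophages with *Lyve1*, the differences of *Gas6* (-0.53) and *Stab1* (-0.74) were smaller. Within those with *Mmp12* or *Itgax*, *Stab1* did not differ beyond counting error, at -0.20 (-0.42 to 0.02). The sign of the *Gas6* difference between Palo and Vehicle depended on the cells. It was -0.60 (-0.69 to -0.51) in macrophages with *Retnla* or *Hal* and 1.19 (1.11 to 1.27) in those without, on the log2 scale. *Axl* in Palo was above Vehicle both with *Mmp12* or *Itgax* (0.39) and without (0.82).

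**Figure D3:**
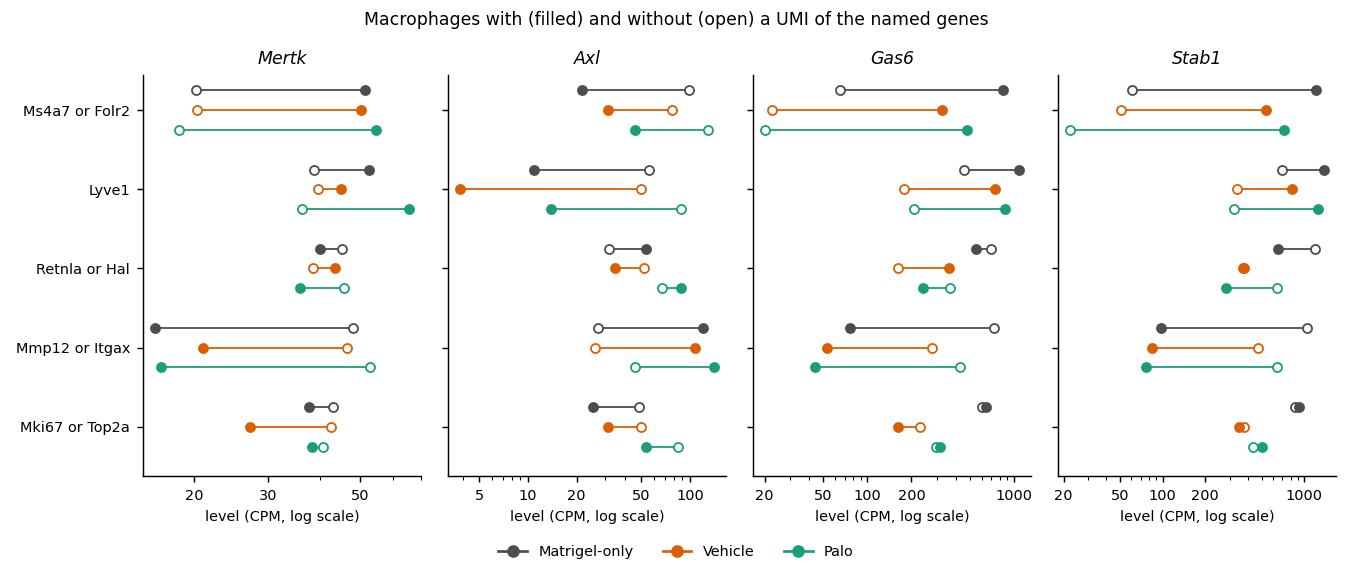
Levels in CPM (log scale) of *Mertk*, *Axl*, *Gas6* and *Stab1* in macrophages with (filled) and without (open) a UMI of the genes named at the left, one line per library. *Axl* is higher with *Mmp12* or *Itgax* and lower with *Lyve1* in each library, and the other 3 genes are the reverse.

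Among stromal cells, *Axl* was highest in cells with *Pi16*, a marker of fibroblast progenitors. It stood at 709, 308 and 589 CPM with *Pi16* and at 311, 45.9 and 289 CPM without. The share of stromal cells with *Pi16* was 55.3%, 12.2% and 31.1%. Vehicle was below Matrigel-only in both states, by log2 ratios of -1.20 with *Pi16* and -2.76 without. In the Vehicle library, 871 stromal cells had a UMI of the cartilage genes *Acan* or *Col2a1*, against 2 in Matrigel-only and 4 in Palo. *Axl* stood at 38.1 CPM in these 871 cells and at 142 CPM in the other Vehicle stromal cells. With such cells left out, Vehicle was still below Matrigel-only at a log2 ratio of -1.83 (-1.92 to -1.75), and Palo above Vehicle at 1.37 (1.28 to 1.47).

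*Mfge8* was distributed differently, at 375 CPM in the Vehicle cells with *Acan* or *Col2a1* and 250 CPM in the others. Without those cells the Vehicle level of *Mfge8* was above Matrigel-only by a log2 ratio of 0.17 (0.09 to 0.24), in place of 0.58 over all stromal cells. *Gas6* showed a split that differed by library. In Vehicle it stood at 613 CPM (582 to 644) in cells with *Pi16* and 135 CPM (131 to 141) in those without, while Matrigel-only had 366 and 353 CPM and Palo 134 and 179 CPM. The cells with *Acan* or *Col2a1* also bore on this gene. With them left out, stromal *Gas6* in Vehicle was 333 CPM, near that of Matrigel-only at a log2 ratio of -0.11 (-0.18 to -0.05), and Palo was below Vehicle at -0.99 (-1.06 to -0.91). So among *Pi16* cells *Gas6* was highest in Vehicle, on 1517 UMIs of 167 cells, and among the rest it was highest in Matrigel-only.

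**Figure D4:**
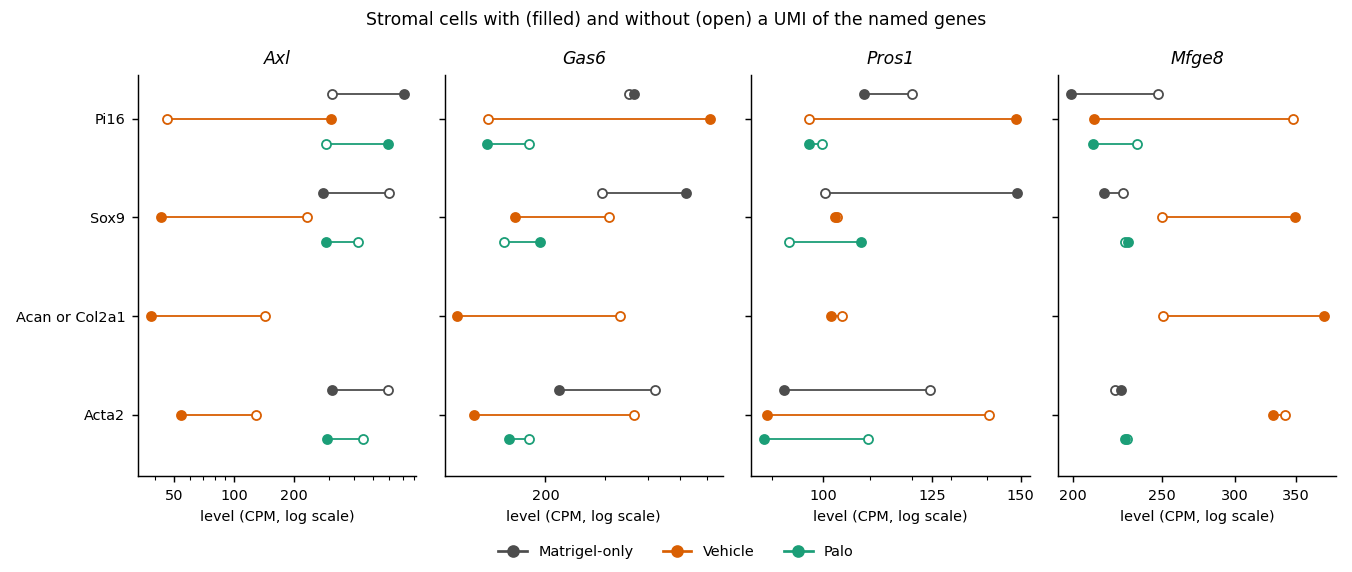
Levels in CPM (log scale) of *Axl*, *Gas6*, *Pros1* and *Mfge8* in stromal cells with (filled) and without (open) a UMI of the genes named at the left, one line per library; splits with fewer than 20 cells on a side are not drawn. *Axl* is higher with *Pi16* in each library, and *Gas6* is higher with *Pi16* by far in Vehicle alone.

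Whether receptor and bridge were found in the same cells was counted after thinning cells of at least 3000 UMIs to that depth. Of macrophages with *Stab1*, 88.2%, 52.9% and 73.9% also held *Gas6*, against 18.7%, 16.5% and 17.1% of those without. Macrophages with *Axl* held *Gas6* in 20.9%, 12.3% and 13.2% of cases, against 60.7%, 33.7% and 44.8% of those without *Axl*. The receptor *Axl* and its ligand were thus found in different macrophages more often than in the same, and 2.12%, 1.11% and 2.28% of macrophages held both. Of macrophages with *Mertk*, 70.1%, 35.4% and 56.5% held *Gas6*, against 54.8%, 31.3% and 37.2% of those without. In stromal cells both *Axl* and *Gas6* were found in 21.0%, 5.21% and 9.64%. Of stromal cells with *Axl*, 30.4%, 33.0% and 17.2% held *Gas6*, against 49.7%, 21.4% and 35.9% of those without. The 2 genes thus went together in Vehicle alone. Many Vehicle stromal cells held *Acan* or *Col2a1*, and levels of both *Axl* and *Gas6* were lower in those cells. The count was not repeated without them. *Folr2* was found in 92.0%, 70.4% and 57.5% of the 112, 27 and 146 macrophages with *Timd4*, against 56.0%, 33.6% and 45.9% of those without.

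In the other cells, named by at least 3 distinct markers of a class, *Timd4* and *Mfge8* stood out. Dendritic cells held *Timd4* at 65.2 CPM (45.7 to 90.3) in Matrigel-only, 152 CPM (114 to 199) in Vehicle and 56.1 CPM (35.5 to 84.1) in Palo, from 137, 60 and 79 cells. These 60 Vehicle cells held 33.1% of the *Timd4* UMIs of their library. *Mfge8* in dendritic cells was 123 CPM in Vehicle (88.5 to 166), on 42 UMIs, and 7.25 and 4.88 CPM in Matrigel-only and Palo, on 4 and 2 UMIs. In B and plasmacytoid dendritic cells of Vehicle, 29 in number, *Mfge8* was 210 CPM on 25 UMIs, while T and NK cells of that library stood at 25.3 CPM. Cells of no class, 349 in Vehicle, held *Mfge8* at 261 CPM (229 to 297), against 34.4 and 39.0 CPM in Matrigel-only and Palo.

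**Figure D5:**
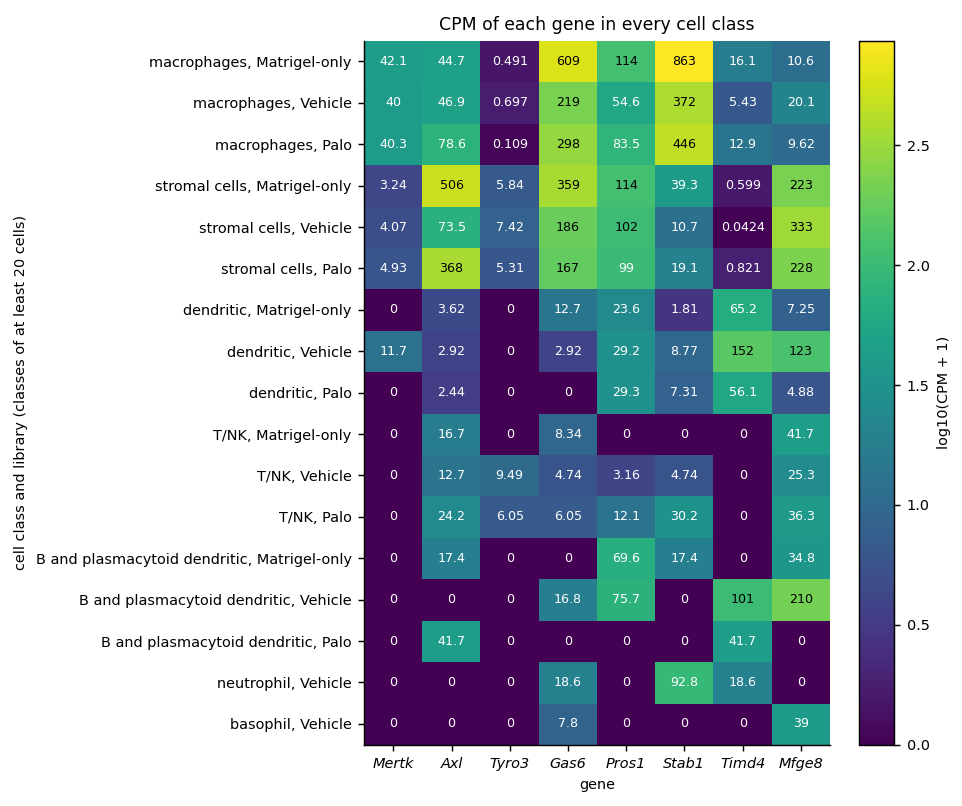
Level of each of the 8 genes in CPM (numbers) in every named cell class with at least 20 cells in a library (cells of no class are not drawn), with the color giving log10(CPM + 1). *Timd4* is found in dendritic cells of all 3 libraries (56.1 to 152 CPM), and *Axl* and *Mfge8* are highest in stromal cells.

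The genes whose levels ran most alike were taken by Pearson correlation of log2(CPM + 5) over the 14 points of a class in a library with at least 50 cells, among 7163 genes. The points share libraries and classes, so the values describe these data only. *Gas6* ran closest to *Igf1* (r = 0.97), *Stab1* to *F7* (0.96) and *Apoe* (0.95), and *Mertk* to the chemokine *Ccl8* (0.95). *Axl* ran closest to *Esr1*, the estrogen receptor gene (0.96), *Timd4* to *Slc46a3* (0.96), *Pros1* to *Cd81* (0.96), *Mfge8* to *Sox4* (0.93) and *Tyro3* to *Cbx1* (0.92). The value for *Tyro3* rests on low levels, of which the highest was 9.49 CPM on 6 UMIs in T and NK cells of Vehicle.

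Of 96 further genes of dead cell clearance in 8 lists, 13 were at least 2-fold higher and 1 lower in Vehicle than in Matrigel-only macrophages, of 81 tested, beside 4.67% and 3.22% of all genes. Palo over Vehicle gave 1 higher and 12 lower, also of 81, beside 2.18% and 5.79% of all genes. Palo over Matrigel-only gave 2 higher and 3 lower of 78, beside 1.06% and 2.12%. Of the 13 higher in Vehicle, 6 were other uptake receptors, 3 bridges and 2 find-me or do-not-eat-me signals. *Olr1*, a scavenger receptor for oxidized lipoprotein, stood at 0.540, 17.8 and 1.17 CPM, and *Havcr2*, which encodes the phosphatidylserine receptor TIM-3, at 2.65, 36.4 and 6.27 CPM. The bridge gene *Lgals3* stood at 437, 1414 and 690 CPM and complement *C3* at 22.5, 117 and 21.8 CPM. *Cx3cr1*, the receptor of the find-me signal fractalkine, was higher in Vehicle than in Matrigel-only by a log2 ratio of 1.69, at 193 against 59.8 CPM. *Socs1*, which TAM signaling can induce, stood at 15.9, 72.0 and 11.9 CPM, and *Nr1h3*, which encodes the sterol-sensing receptor LXR alpha, at 9.67, 27.3 and 10.4 CPM. All of these were highest in Vehicle, whereas *Gas6*, *Pros1*, *Stab1* and *Timd4* were lowest there. Both groups were picked by their ratios, so this contrast follows from the choice and is no result of its own. Of the further genes, *Siglec1*, the 1 lower in Vehicle than in Matrigel-only, stood at 62.6, 30.7 and 32.4 CPM. *Pparg*, the 1 higher in Palo than in Vehicle, stood at 15.1, 7.80 and 19.4 CPM, so both were lowest in Vehicle. The summed neutrophil, T and NK cell and dendritic markers were highest in Vehicle macrophages. Their part in the levels of these further genes was not tested. None of the 9 genes of corpse digestion passed 2-fold in macrophages in any of the 3 comparisons. A list of 9 can give none at the shares of all genes above. Its median log2 ratio was -0.34 for Vehicle over Matrigel-only, beside 0.004 for all genes. For Palo over Vehicle it was 0.19 beside -0.18, and for Palo over Matrigel-only -0.08 beside -0.17. Of 10 tested engulfment genes only *Ptk2* passed 2-fold, lower in Palo than in Matrigel-only.

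In stromal cells 6 of 71 tested genes were at least 2-fold higher and 18 lower in Vehicle than in Matrigel-only, beside 5.52% and 10.8% of all genes. In Palo over Vehicle 14 of 68 were higher and 6 lower, beside 7.63% and 5.78%. Palo over Matrigel-only gave 2 higher and 4 lower of 69, beside 0.793% and 2.58%. *Edil3*, which encodes an integrin-binding bridge related to MFG-E8, stood at 3.84, 131 and 7.90 CPM. *Cd24a*, a do-not-eat-me signal, stood at 2.14, 70.6 and 2.15 CPM. *Itgb3*, the beta chain of an integrin that binds MFG-E8, followed the order of *Axl* with 93.6, 17.8 and 90.7 CPM. The engulfment gene *Trio*, a Rac exchange factor, did so too, with 235, 56.7 and 219 CPM. *Twist2* stood at 41.8, 20.8 and 60.6 CPM. The macrophage genes *C1qa*, *C1qb*, *C1qc*, *Cd14*, *Cd68* and *Cybb*, counted in these lists, were also lower in Vehicle stromal cells. *C1qb*, *C1qc*, *Cd14* and *Cd68* are themselves among the macrophage markers given above, and *C1qa* is part of the class rule. *Cybb*, which is neither, stood at 15.4, 6.23 and 14.2 CPM in stromal cells and 434, 397 and 509 CPM in macrophages, within the proportion of those markers. All of these macrophage genes are among the 18 lower in Vehicle than in Matrigel-only and among the 14 higher in Palo than in Vehicle. These counts were therefore not read as stromal alone.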

How the data were processed

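Per the labels, reads were aligned to mm10 with Cell Ranger 3.0.2, and Seurat 3 is named in the submitters' processing notes. The deposited values are raw UMI counts per gene and cell, 1 matrix for each of the 3 libraries. Cells with 200 to 6000 genes and at most 5% mitochondrial UMIs were kept (8728, 5478 and 7297 in Matrigel-only, Vehicle and Palo). No doublet caller was run. UMIs were summed over the cells of a class and divided by all UMIs of the class (CPM). With 1 library per group no test was possible. Levels carry exact Poisson intervals, shares exact Clopper-Pearson intervals, and ratios the exact binomial interval of the split of the UMIs between 2 libraries, which cover counting error only. Differences between cells, mice and preparations are not in them. A gene was counted as different at 2-fold or more, with at least 5 CPM in the higher library. The other clearance genes named were drawn from those past 2-fold, at most 3 per list, class and comparison by size of the ratio. The text names only some of the genes that this rule gave. *C1qa* of the class rule and *Siglec1* were named besides. For likeness the 3 most alike genes per gene were taken, of which the text gives the first or the first 2. Shares were compared after thinning each cell to 1400 UMIs and leaving out shallower cells. The scripts were checked on simulated counts. Alternatives changed the class limits, cell filters, level minimum, scaling (TMM, edgeR 4.0.16), an added 5 CPM and the treatment of deep cells. Python 3.11.15, scipy 1.17.1 and R 4.3.3 were used. The genes and lists were chosen with earlier results of these data known.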

Additional observations from a re-analysis of the deposited data

Results flagged for a closer look

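For *Gas6*, Palo was above Vehicle in macrophages (log2 ratio 0.44) and below it in stromal cells (-0.15), a gap of 0.59 between the classes. Both signs turned in some of the cells, at -0.60 in macrophages with *Retnla* or *Hal*, 0.40 (0.32 to 0.48) in stromal cells without *Pi16* and 0.25 (0.15 to 0.35) in those with *Sox9*, so the values of the classes are mixtures. For *Axl*, Palo was above Matrigel-only in macrophages (0.81) and below it in stromal cells (-0.46), a gap of 1.28. Both were picked out because the classes went opposite ways. With 1 library per group, neither difference between the classes was tested.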

How the results depend on the processing

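Across 15 alternatives the 6 counts of genes past 2-fold gave 90 values, of which 73 stayed within 1.5 times the main count and 17 did not, and no ratio past 2-fold changed direction. Of 12 such ratios, 5 stayed past 2-fold under all 15. For Vehicle over Matrigel-only these were *Gas6* and *Stab1* in macrophages and *Axl* and *Stab1* in stromal cells, with stromal *Stab1* at the background described above. The other was *Axl* in stromal cells for Palo over Vehicle. For Palo over Vehicle in macrophages the count of 2 was 1 (*Timd4*) with limits of 0.2% and 5%, with at least 2 UMIs of *Csf1r* and *C1qa*, without macrophages holding 3 dendritic markers, by the mean of each cell's CPM, and by TMM. It was 1 (*Mfge8*) at a minimum of 20 CPM and 0 with 5 CPM added. For Palo over Matrigel-only in macrophages the count of 1 was 0 without the macrophages holding dendritic markers, by the mean of each cell's CPM and by TMM, and 2 with no minimum level. In stromal cells that comparison's count of 2 was 1 (*Gas6*) at a limit of 2%, without cells holding *Csf1r* or *C1qa*, with no filter on cells and with 5 CPM added, and 0 with limits of 0.2% and 5%. Palo over Vehicle in stromal cells gave 2 in place of 1 with no minimum level, adding *Timd4* on 1 and 13 UMIs. The causes were not tested. *Pros1* for Vehicle over Matrigel-only ranged from -1.13 to -0.99 and *Timd4* from -1.93 to -1.02. No paired analysis was possible because each group has 1 library.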
